A study of Mus musculus with 5 samples.

Results

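The genes described here encode enzymes that remove superoxide and peroxides, and they were taken by symbol from a fixed list of 10 genes among the 23361 genes listed for each library. They are the superoxide dismutases *Sod1*, *Sod2* and *Sod3*, catalase (*Cat*), the glutathione peroxidases *Gpx1*, *Gpx3*, *Gpx4*, *Gpx7* and *Gpx8*, and the peroxiredoxin *Prdx6*. All 10 were found in the files, and all 10 passed the filter of a mean of at least 1 FPKM. FPKM scales the fragments of a gene by transcript length and by library depth, so levels can be set side by side between genes.

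RNA-seq was carried out on the hippocampus of mice aged 3 months, in 5 libraries. The study's methods describe male mice at this age. The study gives as many mice as there are libraries in each group, so each library is taken as a different mouse. With genotype as the only term, p-values measure the spread between mice together with that between the library sets described below. The control group (n = 2) had the genotype Hdac1f/f, in which *Hdac1* carries floxed alleles and no Cre is present. The *Hdac1* cKO group (n = 3) had the genotype Hdac1f/f, Nestin-Cre, so the floxed alleles were shared by all 5 samples and only the cKO samples carried Cre. *Nestin* is active in neural progenitors, and the study describes deletion in neurons and astrocytes with HDAC1 still present in microglia. No mice with Cre alone were analysed here, so an effect of Cre and an effect of the deletion cannot be told apart. The study reports that genes lower in aged cKO mice were enriched for factors of antioxidant responses, and that such genes were not enriched in young cKO mice. The question is whether single antioxidant enzymes are altered in young mice without HDAC1. HDAC1 is a histone deacetylase that the study connects to the repair of oxidised DNA bases.

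Superoxide is formed as a by-product of respiration and by dedicated oxidases. Superoxide dismutases convert it to hydrogen peroxide, which catalase splits in peroxisomes and which glutathione peroxidases and peroxiredoxins reduce to water with electrons from thiols. In the brain, glutathione peroxidases and peroxiredoxins are regarded as the main route for hydrogen peroxide, since catalase activity is low there. GPX4 is set apart from the others by reducing lipid peroxides inside membranes, which protects neurons from ferroptosis.

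The peroxidases on the list differ in the residue that attacks the peroxide, and the coding sequences are shown because this difference divides *Gpx1*, *Gpx3* and *Gpx4* from the remaining members. Each line gives 27 bases of the coding strand in GENCODE vM1 (longest coding sequence), 5′ to 3′, with the catalytic codon in capitals.
Gpx1: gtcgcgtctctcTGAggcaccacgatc
Gpx3: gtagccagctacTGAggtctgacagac
Gpx4: gtggcctcgcaaTGAggcaaaactgac
Gpx7: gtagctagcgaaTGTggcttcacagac
Gpx8: gtggctagtgacTGCcgcttcacagac
Prdx6: tttaccccagtgTGCaccacagaactt
In *Gpx1*, *Gpx3* and *Gpx4* the codon is TGA, at codons 47, 73 and 129, and each of the 3 genes has 1 such codon in frame before its stop. TGA is read there as selenocysteine, so these transcripts depend on selenium. *Gpx7* and *Gpx8*, enzymes of the endoplasmic reticulum, have the cysteine codons TGT (codon 56) and TGC (codon 79) at the same place. *Prdx6* has TGC at codon 47, the single reactive cysteine of this peroxiredoxin.

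The libraries were not uniform. From shared steps among genes with a mean under 0.3 FPKM, they fell into 2 sets that cross the genotypes, with control 1 and cKO 1 in the first and control 2, cKO 2 and cKO 3 in the second. Within a set 24.6% to 28.4% of low genes shared a single ratio between a pair of libraries (within 0.05 log2 units), against 3.71% to 4.64% across sets. What the sets represent is not given in the sources used here. Estimated depth was 5140000 to 6770000 fragments per library, lowest in cKO 2. The deletion was visible, with *Hdac1* at 8.95 and 13.1 FPKM in the controls and at 1.95, 3.12 and 3.37 FPKM after deletion. Its log2 fold change was −1.66 (SE 0.21, n = 2 and 3, limma, unadjusted p = 5.16e-05), yet the adjusted p was 0.219, and it was 0.00389 with the library set as a block and 0.00389 to 0.825 over all alternatives.

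The 10 genes spanned a range from 1.13 to 612 FPKM and kept the same order of level in each of the 5 libraries. *Gpx4* was the most abundant, followed by *Sod1*, *Prdx6*, *Gpx1*, *Sod2*, *Cat*, *Gpx8*, *Gpx7*, *Sod3* and *Gpx3*. For the first 8 steps of this order the lowest library of the upper gene lay above the highest library of the lower gene. The exception was the last step, since *Sod3* (1.45 to 2.55 FPKM) and *Gpx3* (1.13 to 2.19 FPKM) overlapped across libraries, although *Sod3* was above *Gpx3* within each of them. *Gpx4* and *Sod1* together made up 68.8% to 71.5% of the summed FPKM of the list, and *Gpx8*, *Gpx7*, *Sod3* and *Gpx3* together made up 1.09% to 1.24%. The sum of the 10 genes came to 1154 and 1134 FPKM (controls) as well as 1241, 1166 and 1176 FPKM (cKO), between 0.195% and 0.202% of the FPKM of each library. By mean level *Gpx4* stood at percentile 99.0 of the 12740 tested genes and *Gpx3* at percentile 4.1.

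**Figure D1:**
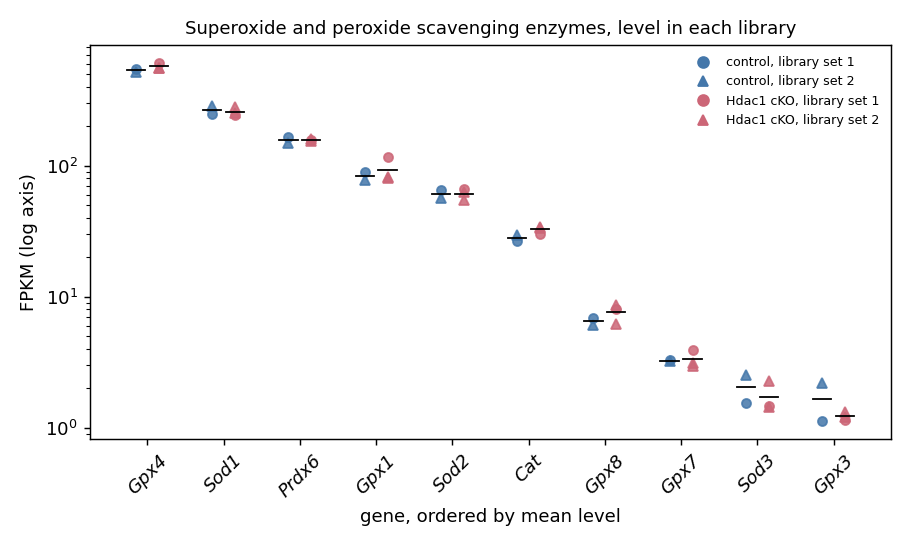
FPKM (log axis) of each of the 10 genes in each library, ordered by mean level. Points are single libraries, circles and triangles mark the 2 library sets, and black lines are group means. The genotypes lie close together for each gene, while levels between genes run from 1.13 FPKM (*Gpx3*, control 1) to 612 FPKM (*Gpx4*, cKO 1).

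Between genotypes the 10 genes showed no change that passed a test. In a limma fit on log2(FPKM + 1) over all 12740 tested genes, 0 of 10 passed an adjusted p of 0.05, against 0.00785% of all tested genes. At an unadjusted p of 0.05 the count was also 0 of 10, against 4.36% of all tested genes, and 0 of 10 passed a fold change of 1.5 with an unadjusted p of 0.05, against 0.659%. The smallest unadjusted p was 0.0893, for *Cat*, and adjusted p-values ran from 0.955 to 0.9997. The median difference was 0.0084 on the log2 scale, beside 0.015 over all tested genes, with 6 genes higher and 4 lower in cKO. In 2 of 10 genes, *Cat* and *Gpx4*, every cKO library was above both controls, against 11.0% of all tested genes, and in 0 of 10 every cKO library was below both controls, against 9.41%. In a bulk sample, fewer cells of a type and less RNA per cell cannot be told apart, and this holds for each value below. For 8 of the 10 genes the 95% interval of the difference on this log2 scale lay inside a fold change of 1.5 in either direction, all but *Sod3* and *Gpx3*. With a pseudocount of 0.1 in place of 1, which shrinks low genes less, this held for 7, and *Gpx8* was no longer among them.

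**Figure D2:**
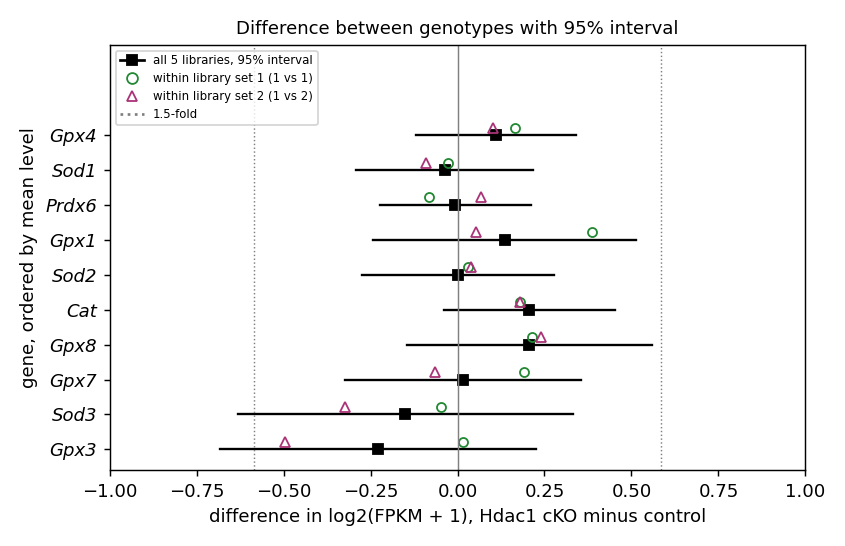
Difference in log2(FPKM + 1), *Hdac1* cKO minus control, for each gene. Squares and lines are the limma estimate and its 95% interval over 5 libraries, open symbols are the differences within each library set, and dotted lines mark a fold change of 1.5. Each of the 10 intervals includes 0, and those of *Sod3* and *Gpx3* are the widest.

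The superoxide dismutases differ in where they work. *Sod1* encodes the copper-zinc enzyme of the cytosol and lies on chromosome 16 from 90220987 to 90226567 (mm9, plus strand). It gave 248 and 284 FPKM in control samples, against 243, 252 and 281 FPKM after deletion. The control values enclosed 2 of the 3 cKO values. The log2 fold change was −0.037 (SE 0.11), and the fold change had a 95% interval of 0.817 to 1.16. It was −0.026 in the first library set and −0.091 in the second. Without control 2 the value was 0.062 and without cKO 1 it was 0.0072, so its sign depended on single libraries.

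*Sod2* encodes the manganese enzyme of the mitochondrial matrix (chromosome 17, 13200705 to 13210985, plus strand). It gave 65.5 and 56.7 FPKM in control samples, against 66.9, 62.5 and 54.4 FPKM after deletion, so the groups covered nearly the same range. The fold change was 1.001, with a 95% interval of 0.826 to 1.21. Without control 2 the log2 fold change was −0.10. The ratio of *Sod1* to *Sod2* FPKM came to 3.78 and 5.01 (controls) as well as 3.64, 4.04 and 5.18 (cKO). The lowest ratios were those of control 1 and cKO 1, the libraries of the first set.

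*Sod3* encodes the copper-zinc enzyme that is secreted and held at the cell surface (chromosome 5, 52755185 to 52762644, plus strand). It gave 1.54 and 2.55 FPKM in control samples, against 1.46, 1.45 and 2.29 FPKM after deletion. Control 2 and cKO 3 were high and the other 3 libraries were within 0.1 FPKM of each other. On the log2 scale the difference was −0.15 (SE 0.21), with values of −0.047 and −0.32 within the sets, and without control 2 it was 0.091. At the estimated depth these values rest on about 37 and 60 fragments (controls) and on about 35, 27 and 52 fragments (cKO). The summed FPKM of 8 endothelial and pericyte markers, a check because SOD3 is abundant in vessel walls, came to 118 and 115 (controls) as well as 105, 105 and 132 (cKO). Of these markers, 6 of 8 had their 2 highest values in control 2 and cKO 3, as *Sod3* did, while *Cldn5* and *Rgs5* did not. This pattern was present in 14.3% of all tested genes, in 5 of 7 microglia, 3 of 8 neuron, 2 of 6 oligodendrocyte and 1 of 8 astrocyte markers, and in none of the choroid plexus, leptomeningeal and red cell markers. The tally was added after the values were seen, and the part of vessel content in the *Sod3* values was not tested.

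*Cat*, catalase, came closest to a difference between genotypes. The gene lies on chromosome 2 (103294006 to 103325317, minus strand). It gave 26.5 and 29.7 FPKM in control samples, against 30.2, 34.3 and 33.4 FPKM after deletion. The control mean was 28.1 ± 2.29 FPKM (SD, n = 2), that of cKO 32.6 ± 2.16 FPKM (SD, n = 3). The groups did not overlap, but control 2 and cKO 1 were 0.4245 FPKM apart. This gave a log2 difference of 0.21 (SE 0.11, adjusted p = 0.955), a fold change of 1.15 with a 95% interval of 0.973 to 1.37. Within both library sets the difference was 0.18. After rescaling to a common total, cKO 1 fell below control 2, and the log2 difference was 0.14 (SE 0.14). With the library set as a block the unadjusted limma p was 0.0347 and the adjusted p 0.498, and over all alternatives the adjusted p ranged from 0.441 to 0.9999.

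*Gpx4* was the other gene whose groups did not overlap (chromosome 10, 79509911 to 79519184, plus strand). It gave 546 and 521 FPKM in control samples, against 612, 559 and 559 FPKM after deletion. The lowest cKO library was above the higher control by 13.4 FPKM. Its log2 difference was 0.11 (SE 0.10), with an adjusted limma p of 0.956. The fold change had a 95% interval of 0.922 to 1.27, and the log2 difference was 0.17 and 0.10 within the sets.

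Levels of astrocyte and neuron markers are set beside these values. The summed FPKM of 8 astrocyte markers came to 2674 and 2698 (controls) as well as 2913, 2967 and 3077 (cKO), with 6 of 8 markers higher and no overlap of the sums. The lower ones were *Aldh1l1* and *Aldoc*, with fold changes of 0.985 and 0.972. The summed FPKM of 8 neuron markers came to 1715 and 1876 (controls) as well as 1608, 1623 and 1762 (cKO), with 8 of 8 markers lower and sums that overlapped. In these 2 lists 0 of 16 genes passed an adjusted p of 0.05 in limma, and 3 (18.8%) had an unadjusted p under 0.05, against 4.36% of all tested genes. With the library set as a block 1 of the 16 passed, against 0.0392% of all tested genes. This was the astrocyte water channel *Aqp4*, which is named here after its values were seen. *Aqp4* gave 54.4 and 54.4 FPKM in control samples, against 89.4, 98.4 and 94.6 FPKM after deletion, with adjusted limma p-values of 0.175 in the main design and 0.0187 with the block. No marker of either list was at 0 in any library. In stained hippocampal sections at this age, the study found no significant difference between genotypes in the numbers of astrocytes, neurons or microglia. GFAP intensity and astrocyte size did not differ there either. Those are measures of stained cells, unlike the RNA levels here. The part of cell content in the values of *Cat* and *Gpx4* was not tested.

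*Gpx1* encodes the selenium-dependent peroxidase of cytosol and mitochondria (chromosome 9, 108241607 to 108242671, plus strand). It gave 88.7 and 78.4 FPKM in control samples, against 116, 82.3 and 80.5 FPKM after deletion. A single library, cKO 1, stood above the rest, and the other 4 lay between 78.4 and 88.7 FPKM. The estimate was 0.14 on the log2 scale (SE 0.16), with 0.39 for the first set and 0.054 for the second, and without cKO 1 it was −0.034. Summed red cell markers, which matter because erythrocytes are rich in GPX1, catalase and peroxiredoxins, came to 104 and 60.9 FPKM (controls) as well as 71.1, 97.4 and 57.6 FPKM (cKO). The part of red cell content in the *Gpx1* values was not tested.

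*Gpx3* encodes the secreted selenium-dependent enzyme of plasma and extracellular fluid (chromosome 11, 54715955 to 54723879, plus strand). It gave 1.13 and 2.19 FPKM in control samples, against 1.16, 1.21 and 1.31 FPKM after deletion. Control 2 was the highest library and control 1 the lowest, so the controls enclosed all cKO values. The log2 fold change of −0.23 (SE 0.20) rested on control 2, since it was 0.061 without that library, and the first set gave 0.016 and the second −0.49. About 12 and 23 fragments lay behind the control values and 12, 10 and 13 behind the cKO values. The 95% interval of the fold change was 0.623 to 1.17, and with a pseudocount of 0.1 it was 0.473 to 1.32. These bounds are folds of FPKM plus the pseudocount, and the corresponding bounds on the level itself are wider.

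*Gpx8*, a membrane protein of the endoplasmic reticulum, lies on chromosome 13 (113832971 to 113836596, minus strand). It gave 6.87 and 6.09 FPKM in control samples, against 8.13, 8.70 and 6.24 FPKM after deletion. Libraries cKO 1 and cKO 2 were above both controls, and cKO 3 was between them. For *Gpx8* the log2 difference was 0.21 (SE 0.15), with an adjusted limma p of 0.955, and the 95% interval of the fold change was 0.904 to 1.47. The difference had the same sign in both sets, at 0.21 and 0.24. The values rest on about 40 to 56 fragments per library. The summed FPKM of 8 leptomeningeal fibroblast markers came to 74.9 and 73.4 (controls) as well as 94.4, 93.1 and 96.4 (cKO), and none of these markers was at 0. Of the 6 that were tested, 6 were higher and 2, *Igf2* and *Igfbp2*, had an unadjusted limma p under 0.05, against 4.36% of all tested genes, while 0 passed an adjusted p of 0.05. Most of the rise of the sum lay in *Igf2* and *Igfbp2*. Means of *Dcn* (36.6 FPKM in controls, 39.6 in cKO) and *Lum* (2.66 and 2.76) differed little. The summed FPKM of 8 choroid plexus markers came to 220 and 50.3 (controls) as well as 118, 682 and 77.5 (cKO). Most of its variation lay in *Ttr*, at 157, 1.33, 67.9, 589 and 20.7 FPKM in the same order, and most of the rest of the sum was *Enpp2* (43.0 to 78.4 FPKM), with *Folr1* and *Kcnj13* at 0 in cKO 3. The part of these tissues in the *Gpx8* and *Gpx3* values was not tested.

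*Gpx7*, its close relative in the lumen of the endoplasmic reticulum, is on chromosome 4 (108072995 to 108079566, minus strand). It gave 3.31 and 3.21 FPKM in control samples, against 3.92, 3.10 and 2.96 FPKM after deletion, with cKO 1 above and the other 2 cKO libraries below both controls. The fold change was 1.01 (95% interval 0.799 to 1.28). Its sign followed single libraries, with −0.080 without cKO 1. The ratio of *Gpx8* to *Gpx7* FPKM came to 2.07 and 1.90 (controls) as well as 2.07, 2.80 and 2.11 (cKO).

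*Prdx6* encodes a peroxiredoxin that also acts on oxidised phospholipids and is prominent in astrocytes (chromosome 1, 163170243 to 163181350, minus strand). It gave 167 and 150 FPKM in control samples, against 157, 160 and 155 FPKM after deletion. All 3 cKO values lay between the controls, and its highest library was 1.11 times its lowest, the smallest spread of the 10 genes. The fold change was 0.996, with a 95% interval of 0.857 to 1.16. The differences within the sets had opposite signs, −0.081 and 0.068.

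**Figure D3:**
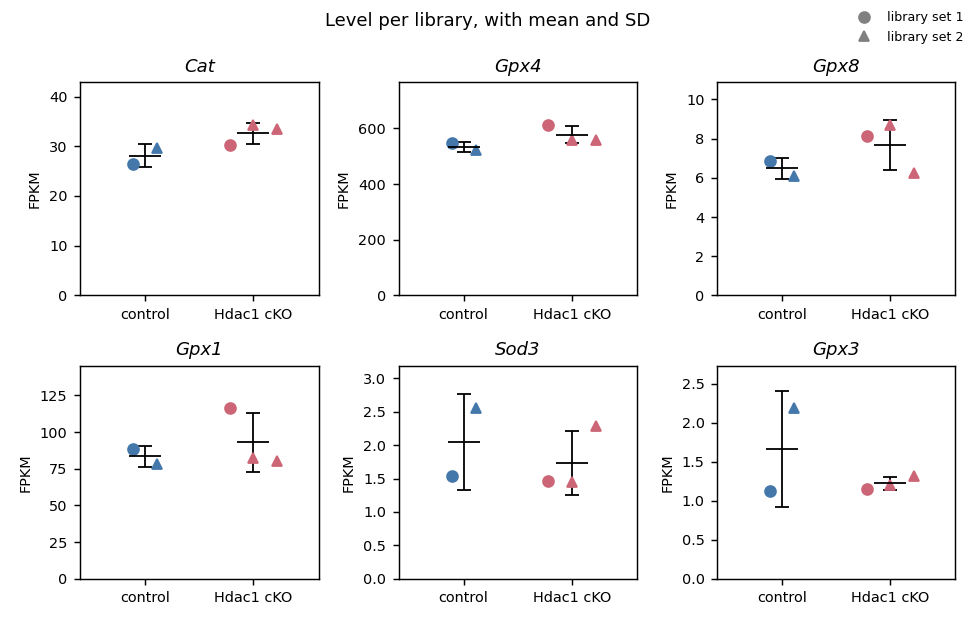
FPKM per library of 6 genes, on axes that start at 0. Points are libraries (circles and triangles for the 2 sets), and horizontal lines with bars are group means ± SD. In FPKM as deposited, *Cat* and *Gpx4* show separate groups. *Gpx1* is raised in cKO 1 alone, and control 2 has the highest *Sod3* (2.55 FPKM) and *Gpx3* (2.19 FPKM).

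For 5 of the 10 genes the library sets did not overlap, while the genotypes did. *Gpx1*, *Sod2* and *Gpx7* were higher in both libraries of the first set than in the 3 of the second (3 of 10, against 14.0% of all tested genes). *Sod1* and *Gpx3* were lower in both (2 of 10, against 26.1%). With genotype in the limma model, *Gpx1* differed by 0.37 between the sets (SE 0.086, unadjusted p = 0.00311, adjusted p = 0.0621) and *Sod2* by 0.20 (SE 0.078, unadjusted p = 0.0363, adjusted p = 0.186). These were 2 of 10 genes at an unadjusted p under 0.05, against 22.9% of all tested genes. At an adjusted p of 0.05 it was 0 of 10, against 3.09%.

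Reads of some members can be shared with copies elsewhere in the genome. A stretch of 733 nt of the 995 nt *Gpx4* transcript matched chromosome 10 from 45595140 to 45595872 with 99.7% identity, where no gene is annotated in GENCODE vM1. For *Sod1*, 613 of 646 nt matched the pseudogene *Gm8566* on chromosome 6 (67155508 to 67156120) with 97.2% identity, and this pseudogene has no row in the files. The end of the *Sod2* transcript (1424 nt) matched an intronic stretch of *Mllt4* on chromosome 17 with 97.2% identity. How such reads were assigned is not given in the sources used here, so the levels of these 3 genes are uncertain to that extent. The other 7 genes had no match of at least 95% over 200 nt, and none of the 10 shares exonic sequence with an annotated neighbour.

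The study examined guanine-rich promoters, and in aged cKO mice it measured more oxidised guanine at the *Gpx3* promoter. The promoters of the members were therefore searched for the GC box, the binding motif of SP factors (GGGCGG, either strand). RefSeq windows from 250 bases before to 50 bases after the start (GRCm38.p6) were at hand for 8 of the 10 genes, all but *Sod3* and *Prdx6*. The motif was present in 7 of these 8 genes in at least 1 window, beside 38.2% of all 27025 genes in the table. Those 27025 genes were not limited to genes past the expression filter, as the members were, so the shares have unlike bases. *Sod1* and *Sod2* held 4 each, *Gpx4* up to 2 in its 4 windows, and *Cat*, *Gpx1*, *Gpx3* and *Gpx7* held 1 each, while *Gpx8* held 0. A match is a description of the sequence and was not tested against the expression values.

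The surrounding pathway was described with 8 lists of 94 genes, all of them in the files, of which 74 were tested. Selenoprotein P, held in its list under an older and a newer symbol, is counted once. At an adjusted p of 0.05 in limma 0 of the 74 passed, and 3 (4.05%) had an unadjusted p under 0.05, close to the 4.36% of all tested genes. Every cKO library was above both controls in 11 genes (14.9%) and below both in 11 (14.9%), against 11.0% and 9.41% of all tested genes. Over these 74 genes the median difference was −0.036, beside 0.015 over all tested genes, with 28 genes higher and 46 lower. The medians of single lists, given next, were close to 0, and several changed sign when 1 library was left out. Without cKO 1 the glutathione and NADPH median was 0.035, that of copper delivery 0.010 and that of peroxide-forming oxidases 0.0022. Without control 2 the medians were −0.0061 for peroxiredoxins and thioredoxins, −0.027 for selenium delivery and 0.014 for peroxide-forming oxidases. Without cKO 2 copper delivery was at 0.018, and without cKO 3 selenium delivery was at −0.043.

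In the peroxiredoxin and thioredoxin list 18 of 18 genes were tested, 10 higher and 8 lower, with a median difference of 0.017. *Prdx2*, a cytosolic peroxiredoxin of neurons, gave 439 and 363 FPKM in control samples, against 419, 485 and 385 FPKM after deletion. *Prdx5*, found in mitochondria and peroxisomes, was at 295 and 261 FPKM against 303, 265 and 276 FPKM. *Prdx4*, the peroxiredoxin of the endoplasmic reticulum, gave 22.1 and 19.0 FPKM in control samples, against 25.4, 24.1 and 27.5 FPKM after deletion, so its groups did not overlap. Its log2 fold change was 0.31 (SE 0.11, unadjusted p = 0.0254, adjusted p = 0.955). *Txn2*, the mitochondrial thioredoxin, was at 42.3 and 44.0 FPKM against 39.5, 28.0 and 33.4 FPKM, a log2 difference of −0.36 (SE 0.14, unadjusted p = 0.0334, adjusted p = 0.955). Its difference was −0.095 for the first set and −0.51 for the second. The other glutathione peroxidases, *Gpx2*, *Gpx5* and *Gpx6*, were listed at 0 in all 5 libraries.

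Glutathione peroxidases depend on the supply of glutathione and NADPH. Of 14 genes in that list 5 were higher and 9 lower, with a median of −0.051, and 1 had an unadjusted p under 0.05. This was *Slc7a11*, which encodes the exchanger that brings in cystine for glutathione synthesis. It gave 12.3 and 12.7 FPKM in control samples, against 18.3, 17.0 and 17.6 FPKM after deletion, so the groups did not overlap. The log2 fold change was 0.46 (SE 0.10, unadjusted p = 0.00174, adjusted p = 0.955), with 0.53 and 0.42 within the sets, and it stayed between 0.41 and 0.49 over 14 alternative fits. The adjusted p was between 0.259 and 0.9999, so it did not pass in any of them. *Slc7a11* is expressed by astrocytes, whose marker sum was also higher in cKO as given above, and the part of astrocyte content was not tested. The most abundant genes of this list, the NADPH-forming isocitrate dehydrogenases *Idh2* and *Idh1*, had log2 fold changes of −0.087 and 0.039.

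Copper and selenium have to reach the enzymes that use them. Of 6 tested copper genes 2 were higher and 4 lower, with a median of −0.025. *Atox1*, the copper chaperone that serves the secretory route of SOD3, gave 120 and 166 FPKM in control samples, against 149, 184 and 157 FPKM after deletion, and *Cox17*, the chaperone for cytochrome oxidase, had a log2 fold change of 0.13. Of 11 tested selenium genes 6 were higher and 5 lower, with a median of 0.048. *Sepp1*, which encodes the selenium carrier selenoprotein P, gave 242 and 241 FPKM in control samples, against 247, 268 and 268 FPKM after deletion (log2 fold change 0.11, adjusted p = 0.955). *Secisbp2l* had a log2 fold change of 0.067. In both lists 0 genes had an unadjusted p under 0.05.

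Regulators and sources of oxidants gave no call either. In the list of NRF2 and FOXO regulators and targets 2 of 12 tested genes were higher and 10 lower, with a median of −0.086. Its most abundant members were *Nfe2l1* (−0.18), a relative of NRF2, and *Keap1* (−0.072), the adaptor through which NRF2 is degraded. Of the superoxide-forming oxidases 3 of 13 passed the filter, with a median of −0.10. The most abundant was *Cyba*, a subunit of NADPH oxidase, at 14.99 and 9.63 FPKM in control samples and 14.1, 11.5 and 11.1 FPKM after deletion, followed by *Ncf1* (−0.13). Of 10 tested peroxide-forming oxidases 2 were higher and 8 lower, with a median of −0.063. *Smox*, spermine oxidase, differed by −0.10. In these 3 lists 0 genes had an unadjusted p under 0.05.

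**Figure D4:**
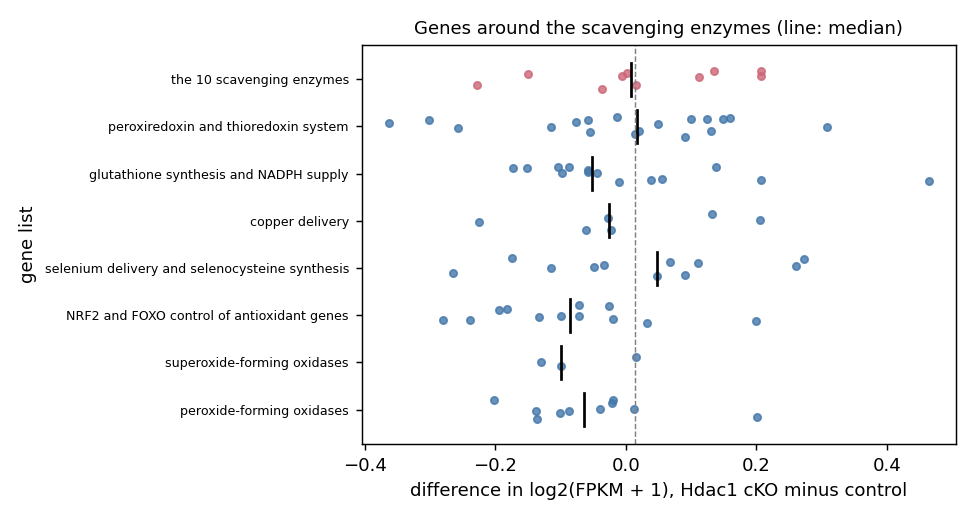
Difference in log2(FPKM + 1), *Hdac1* cKO minus control, for the tested genes of each list. Points are genes, black lines are list medians and the dashed line is the median of all tested genes (0.015). The 10 scavenging enzymes lie between −0.23 and 0.21, and the point at 0.46 is *Slc7a11*.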

How the data were processed

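RNA-seq values from the hippocampus in 5 libraries were used as deposited. Per the study's methods and the submitters' processing notes, the authors prepared TruSeq libraries, aligned reads with TopHat to mm9 and obtained FPKM with Cufflinks 2.0.0. Strand use was not stated. Groups and replicate numbers came from the sample titles. A filter kept genes whose mean reached 1 FPKM, and these were fitted with limma 3.58.1 in R 4.3.3 on log2(FPKM + 1), genotype being the only term, with a mean-variance trend, two-sided p-values and Benjamini-Hochberg adjustment over 12740 genes. Fold changes on this scale understate changes of low genes. The fit was tested on simulated data. The members, lists and library sets were chosen with earlier results of these data known. Named list genes were the 2 most abundant and up to 3 with the smallest unadjusted p under 0.05. A gene that this rule names is not reported here. Library sets joined libraries sharing over 10% of low genes in a window of 0.05 log2 units. Depth of single libraries is not given in the files. It was estimated from the value of 1 fragment in single-transcript genes of at least 1000 nt, is approximate, and carries no interval. The study's methods give a mean yield of reads per sample, which is above each of these estimates. Copies were searched with BLAST 2.17.0 in NCBIM37, which is the mm9 build. Alternatives were other pseudocounts, filters, scalings, no trend, blocks and leaving out libraries.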

Additional observations from a re-analysis of the deposited data

How the results depend on the processing

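Over 137 alternative fits of the 10 enzymes, 119 kept the sign of the difference, 18 turned it, and 0 passed an adjusted p of 0.05 (limma, 0.415 to 0.9999). *Cat*, *Gpx4* and *Gpx8* kept their sign in each fit, with ranges of 0.13 to 0.29, 0.069 to 0.14 and 0.12 to 0.33 without single libraries, and *Gpx4* was at 0.035 with quantile normalization. *Sod2* turned to −0.014 with size factors, −0.034 with quantile normalization and −0.065 after rescaling to a common total, which also turned *Gpx7* to −0.041 and moved the median of all genes to −0.047. *Prdx6* turned to 0.0044 with the set as a block. Leaving out 1 library at a time gave −0.14 to 0.062 for *Sod1*, −0.10 to 0.10 for *Sod2*, −0.39 to 0.091 for *Sod3*, −0.034 to 0.23 for *Gpx1*, −0.52 to 0.061 for *Gpx3*, −0.080 to 0.077 for *Gpx7* and −0.081 to 0.068 for *Prdx6*. Where a single control remained, it was assumed to vary like the cKO libraries. Of 98 alternative list medians 19 moved by more than the spread between libraries. A mean of at least 5 FPKM turned copper delivery to 0.055 and superoxide-forming oxidases to 0.016, and rescaling to a common total turned peroxiredoxins and thioredoxins to −0.049 (−0.0056 with quantile normalization) and selenium delivery to −0.0068. At an adjusted p of 0.05, 1 gene was called in all, 5 with the set block, and 1 to 5 without single libraries. The count past a fold of 1.5 and an unadjusted p of 0.05 was 84, and it was 142 with a pseudocount of 0.1, 43 with a mean of at least 5 FPKM, and 92 to 231 without single libraries. Of the 84 genes 60.7% were higher in cKO, against 41.1% of 124 after rescaling to a common total, 46.8% of 231 without control 2 and 45.9% of 148 without cKO 1.

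The titles give control and cKO libraries the same replicate numbers 1 and 2, and nothing says that these pair the samples. Same-numbered libraries deviated together from their group means (r = 0.402 and 0.269 across genes), but each such pair also shares a library set. The 2 controls deviate from their mean by equal and opposite amounts, so these 2 values of r are not independent. With the replicate block 14 genes passed the adjusted p and 133 the fold rule. The astrocyte marker *Aqp4* was among those past the adjusted p (0.0249). *Prdx6* turned to 0.0072, the selenium delivery median to −0.043, and *Gpx8* (0.33), *Gpx1* (0.23) and *Cat* (0.19) had adjusted p-values of 0.415, 0.436 and 0.441.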
